A study of Mus musculus with 16 samples.

Results

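The growth plate and hedgehog signaling genes followed here were Ihh, Ptch1, Gli1, Gli2, Gli3, Pth1r and Col10a1. They were taken by name, and all 7 were among the 13733 genes listed in the table and among the 13173 genes that could be tested. Expression was measured by bulk RNA-seq in 16 libraries of cells from mouse knee joints, 4 for each pairing of genotype (WT or Trem2-/-) with day (D0 or D7). WT mice were C57BL/6J, Trem2-/- mice were C57BL/6J-Trem2em2Adiuj/J, a constitutive knockout on that same background, and all mice of the study were male. D0 joints were uninjured. D7 joints were taken 7 days after rupture of the anterior cruciate ligament by tibial compression at 10 weeks of age. The sample labels also give an age of 16 weeks and, in the extraction text, homogenized whole joints, control and T1DM mice and another library kit, whereas the study describes cells released from joints by digestion. For how the cells were obtained the study points to its single-cell section, which includes a separation of CD45+ cells (leukocytes) on beads, and does not say which fraction entered these libraries, and which animals gave the 4 libraries of a group is not spelled out, so p-values measure the spread between these samples.

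In the growth plate, Indian hedgehog is secreted by chondrocytes that have stopped dividing and are about to enlarge (prehypertrophic cells). It binds Patched 1, which otherwise holds the transducer Smoothened silent, and the signal reaches the nucleus through the transcription factors Gli1, Gli2 and Gli3. Ptch1 and Gli1 are themselves targets of the pathway and are widely read as its output, while Gli3 acts mostly as a repressor when no ligand is bound. Ihh also sustains PTHrP (Pthlh), whose receptor Pth1r delays hypertrophy, and hypertrophic chondrocytes lay down type X collagen, encoded by Col10a1. Osteoblasts also carry Pth1r, and fibroblasts and other mesenchymal cells also carry the Gli genes and Ptch1.

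Reads on listed genes ranged from 11567073 to 32867818 per library (median 16399898). Values are CPM scaled by the TMM method, and 100% of them were whole multiples of the value of 1 read within 0.1 read, so reads per gene could be recovered. Trem2 was listed at 10.7 to 22.5 CPM at WT D7 and 3.42 to 4.84 CPM at Trem2-/- D7, and at 2.51 to 5.61 CPM at WT D0 and 0.948 to 2.68 CPM at Trem2-/- D0, where the ranges overlap. Both joint tissue and leukocytes were present in every library: Col2a1, the main cartilage collagen, was at 104 CPM or more in each, and the summed CPM of 6 leukocyte genes was 1243 or more. The 4 WT D0 libraries stood far apart in the level of chondrocyte genes. The summed CPM of 19 chondrocyte genes was 6759, 1132, 9957 and 16835 in WT D0 replicates 1 to 4, against 1611 to 5268 at Trem2-/- D0, 34287 to 85961 at WT D7 and 33010 to 50120 at Trem2-/- D7.

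In the GENCODE M21 annotation of GRCm38 (mm10, the build the study used), Ihh lies at chr1:74945315-74951672 on the minus strand, Gli2 at chr1:118834132-119053619 (minus), Pth1r at chr9:110722085-110747145 (minus), Col10a1 at chr10:34389981-34397085 (plus), Gli1 at chr10:127329882-127341974 (minus), Gli3 at chr13:15463235-15730026 (plus) and Ptch1 at chr13:63508328-63573598 (minus). The reads counted for a gene come from its exons, which together span 3048 bases for Ihh, 3130 for Col10a1, 2925 for Pth1r, 4995 for Gli1, 6869 for Gli2, 9589 for Gli3 and 14185 for Ptch1. Exons of 4 of the genes share bases with a gene on the opposite strand: Col10a1 shares 18 bases with Nt5dc1, Pth1r 95 with Myl3, Gli1 62 with Arhgap9 and 265 with Gm47200, and Gli3 188 with Gm6556. Whether reads were counted by strand is not given in the sources used here. Arhgap9, a gene of leukocytes, had mean levels of 63.3 and 27.0 CPM at WT D0 and D7 and of 81.8 and 16.0 CPM at Trem2-/- D0 and D7. It fell in both genotypes (log2 fold changes -1.15 and -2.24, adjusted p = 0.00691 and 2.20e-05), and its part in the Gli1 value was not tested.

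RefSeq promoter windows (GRCm38.p6, 250 bases before to 50 bases after a start site) were at hand for 6 of the 7 genes, in 8 windows, 3 of them for Pth1r. They were searched on both strands for the GLI binding motif GACCACCCA and its looser form GACCNCCCA, which includes it, for the RUNX motif TGTGGT and for the TATA box TATAAA. These motifs occur in 0.253%, 0.977%, 16.8% and 13.6% of all 32851 windows. In the 8 windows, TATAAA was found only in Col10a1, 32 bases before the start, and TGTGGT only in Gli3, on the minus strand from 120 bases before the start, and the matches do not overlap. Neither GLI form was found in the 8 windows. The 250 bases before the start are shown for the hypertrophic marker, the ligand, the receptor and the GLI gene that rose with injury, with the TATAAA and TGTGGT matches in capitals (the latter reads ACCACA on the strand shown). The RefSeq starts of Ptch1 and Gli3 lie within the GENCODE genes, downstream of the outermost start.
Col10a1, chr10:34389731-34389980, plus strand: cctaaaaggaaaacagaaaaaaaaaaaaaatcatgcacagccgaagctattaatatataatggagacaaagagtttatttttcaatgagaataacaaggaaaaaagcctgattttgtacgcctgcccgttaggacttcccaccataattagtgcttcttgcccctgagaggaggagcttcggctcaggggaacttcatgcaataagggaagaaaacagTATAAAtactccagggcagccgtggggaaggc
Ihh, chr1:74951673-74951922, minus strand: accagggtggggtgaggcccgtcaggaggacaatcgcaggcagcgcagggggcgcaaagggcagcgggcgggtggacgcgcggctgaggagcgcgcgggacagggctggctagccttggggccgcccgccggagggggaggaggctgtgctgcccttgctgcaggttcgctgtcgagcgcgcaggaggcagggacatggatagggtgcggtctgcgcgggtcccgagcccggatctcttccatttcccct
Ptch1, chr13:63565736-63565985, minus strand: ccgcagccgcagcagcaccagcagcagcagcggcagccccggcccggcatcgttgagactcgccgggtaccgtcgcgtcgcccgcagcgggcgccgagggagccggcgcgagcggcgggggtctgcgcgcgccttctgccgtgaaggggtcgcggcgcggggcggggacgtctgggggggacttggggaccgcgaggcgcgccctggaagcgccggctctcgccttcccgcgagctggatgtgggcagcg
Gli3, chr13:15463473-15463722, plus strand: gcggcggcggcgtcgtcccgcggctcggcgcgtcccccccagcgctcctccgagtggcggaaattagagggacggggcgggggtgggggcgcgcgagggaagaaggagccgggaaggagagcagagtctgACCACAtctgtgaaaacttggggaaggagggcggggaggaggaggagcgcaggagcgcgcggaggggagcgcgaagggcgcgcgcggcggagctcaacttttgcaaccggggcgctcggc
The Col10a1 window is the AT-rich one, with a GC content of 44.3%, whereas those of Ihh, Ptch1 and Gli3 hold 72.7%, 76.3% and 71.0%, against a median of 52.7% over all windows.

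At 7 days after injury the ligand Ihh, its receptor Ptch1, the transcription factor Gli3, the PTHrP receptor Pth1r and the hypertrophic collagen Col10a1 were higher than in uninjured joints, in WT and in Trem2-/- mice alike, while Gli1 and Gli2 did not pass the test in either genotype. A gene was called with a Benjamini-Hochberg adjusted p under 0.05 over all genes tested, from limma on log2(CPM + 1), and a log2 fold change beyond 0.32, the study's own threshold of size. Folds given with a log2 value are on the same CPM + 1 scale. By this rule 5 of the 7 genes were called higher in WT, where 15.3% of all genes tested were, and 5 of 7 in Trem2-/-, where 24.9% were. Ihh is counted in both, although it passed the filter on low values mainly through its D7 libraries; without it 4 of 6 were called in each. The study's own rule, an unadjusted p under 0.05 with the same fold, gave the same 5 genes in each genotype, against 19.3% and 26.5% of all genes. Every D7 library lay above every D0 library for 3 of the 7 genes in WT (12.9% of all genes) and for 6 of the 7 in Trem2-/- (26.1%). The median log2 fold change of the 7 genes was 1.38 in WT and 1.75 in Trem2-/-, beside -0.045 and -0.042 over all genes. In bulk samples more cells of a type and more RNA per cell cannot be told apart, and the lists of cell type markers that moved with these genes are given further on.

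**Figure D1:**
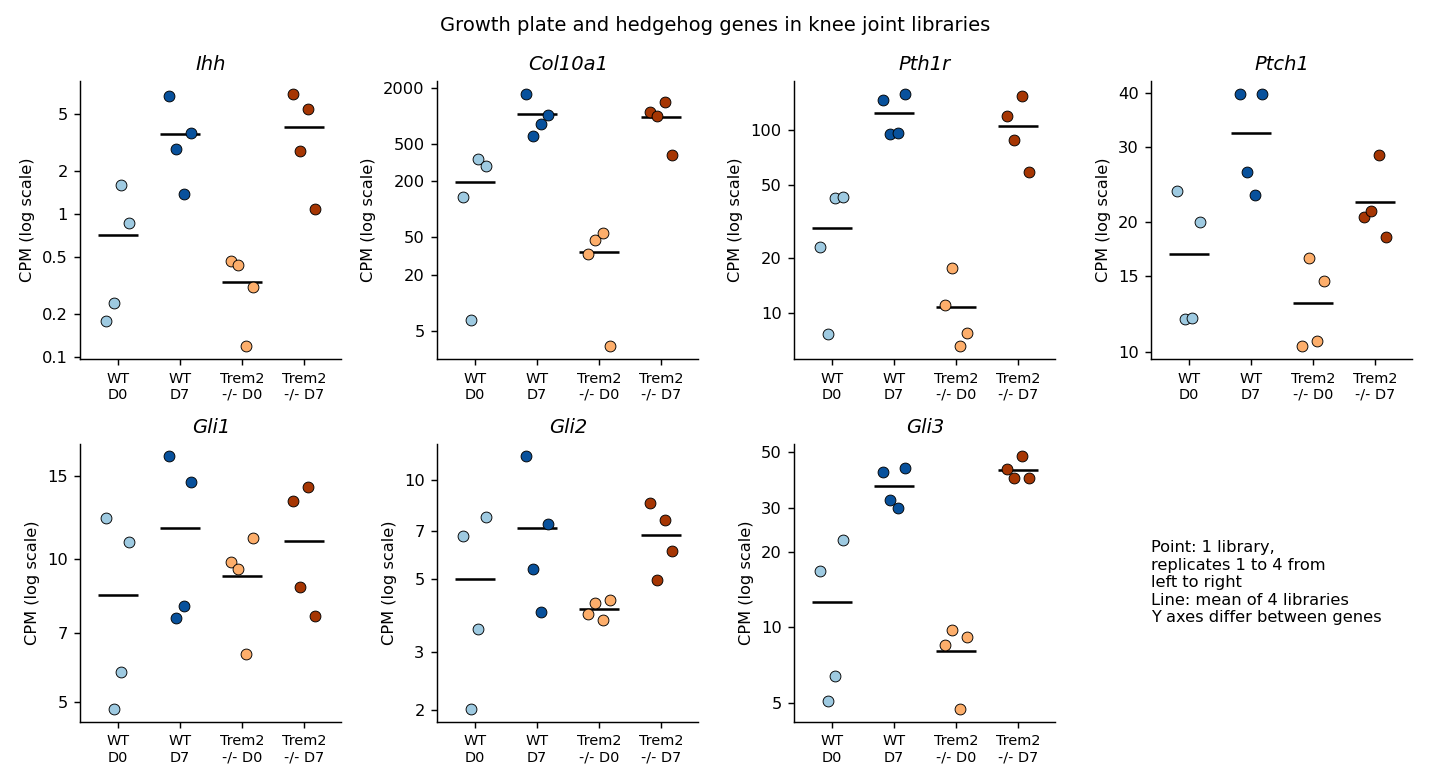
CPM of each gene in each library on a log scale, with the 4 libraries of a group as points (replicates 1 to 4 from left to right) and their mean as a line. Col10a1, Pth1r and Gli3 separate D7 from D0 completely in both genotypes, Gli1 overlaps in both, and the WT D0 points are the most scattered for Col10a1 (6.45 to 347 CPM).

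Ihh, the ligand, had the lowest mean per kb of exons of the 7 genes before injury. It was at 0.179, 0.239, 1.59 and 0.871 CPM in WT D0 replicates 1 to 4, which is 3, 5, 30 and 16 reads, and at 6.69, 2.83, 1.38 and 3.68 CPM at WT D7 (96, 50, 40 and 62 reads). In Trem2-/- mice it was at 0.470, 0.442, 0.119 and 0.309 CPM at D0 (7, 7, 2 and 4 reads) and at 6.95, 2.76, 5.43 and 1.08 CPM at D7 (207, 40, 97 and 13 reads). The WT groups overlap through D0 replicate 3 and D7 replicate 3, and the Trem2-/- groups do not overlap. Mean CPM was 5.05-fold higher at D7 in WT (3.64 ± 2.24 against 0.721 ± 0.661, SD, n = 4) and 12.1-fold higher in Trem2-/- (4.06 ± 2.63 against 0.335 ± 0.160). On the log2(CPM + 1) scale, which understates the change of so low a gene, the rise was 1.38 ± 0.40 (SE, limma adjusted p = 0.0200) in WT and 1.75 ± 0.40 (adjusted p = 0.00199) in Trem2-/-, and edgeR on the recovered reads gave 2.30 (adjusted p = 0.0207) and 3.61 (adjusted p = 0.00107). Ihh reached 1 CPM in 1 of 4 WT D0 and 0 of 4 Trem2-/- D0 libraries but in all 8 D7 libraries, so it entered the test mainly through the group where it is high. Without WT D0 replicate 2 or without WT D7 replicate 1 the WT call was lost (adjusted p = 0.0592 and 0.0677).

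Ptch1, the hedgehog receptor and a target of the pathway, rose by less. Its levels were 23.7, 11.9, 12.0 and 20 CPM in WT D0 replicates 1 to 4 and 39.8, 26.2, 23.2 and 39.8 CPM at WT D7. In Trem2-/- mice they were 10.3, 16.5, 10.6 and 14.6 CPM at D0 and 20.6, 21.3, 28.7 and 18.5 CPM at D7. The WT groups touch, since D7 replicate 3 lies just under D0 replicate 1, and the Trem2-/- groups do not overlap. The log2 fold change was 0.91 ± 0.24 in WT (1.88-fold, adjusted p = 0.0137) and 0.74 ± 0.24 in Trem2-/- (1.67-fold, adjusted p = 0.0183). The WT call was lost without D0 replicate 3 (adjusted p = 0.0533), and the Trem2-/- call without D0 replicate 1, D0 replicate 3 or D7 replicate 3 (adjusted p = 0.0560, 0.0525 and 0.0633).

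Gli1, the factor whose transcript is most directly induced by hedgehog signal, differed little between days. It was at 12.2, 4.83, 5.79 and 10.9 CPM at WT D0 and 16.5, 7.53, 7.96 and 14.6 CPM at WT D7, and at 9.88, 9.54, 6.32 and 11.1 CPM at Trem2-/- D0 and 13.3, 8.75, 14.2 and 7.59 CPM at Trem2-/- D7. The days overlap in both genotypes. The log2 difference, D7 minus D0, was 0.43 (95% interval -0.22 to 1.08, adjusted p = 0.291) in WT and 0.21 (-0.44 to 0.86, adjusted p = 0.582) in Trem2-/-, and a rise as large as that of Ptch1 lies within both intervals.

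Gli2, the main activator among the GLI factors, had the lowest mean of the 3 per kb of exons in every group. It was at 6.75, 2.01, 3.51 and 7.73 CPM at WT D0 and 11.8, 5.38, 3.96 and 7.36 CPM at WT D7, which overlap. In Trem2-/- mice it was at 3.90, 4.23, 3.76 and 4.33 CPM at D0 and 8.53, 4.96, 7.56 and 6.09 CPM at D7, and every D7 library lay above every D0 library. The log2 difference was 0.47 (95% interval -0.20 to 1.14, adjusted p = 0.266) in WT and 0.60 (-0.07 to 1.27, adjusted p = 0.120) in Trem2-/-. The exact two-sided permutation test of the Trem2-/- difference gave p = 0.0286, the smallest that 70 assignments allow. With only the Trem2-/- groups in the fit Gli2 was called (adjusted p = 0.0102).

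Gli3, the GLI factor with the main repressor role, rose in every comparison of D7 with D0. It was at 16.8, 5.07, 6.38 and 22.4 CPM at WT D0 and 41.8, 32.3, 29.9 and 43.4 CPM at WT D7. At Trem2-/- D0 it was at 8.47, 9.79, 4.71 and 9.11 CPM and at Trem2-/- D7 at 43.0, 39.5, 48.2 and 39.4 CPM. The days do not overlap in either genotype, and the 4 Trem2-/- D7 libraries differed by no more than 1.22-fold. The log2 fold change was 1.68 ± 0.34 in WT (3.20-fold, adjusted p = 0.00372) and 2.31 ± 0.34 in Trem2-/- (4.95-fold, adjusted p = 8.76e-05), and no left-out library ended either call.

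The balance of the GLI transcripts differed between days. The following ratios were looked at after the values were seen and carry no test. Within a library, Gli3 over Gli1 in CPM was 1.37, 1.05, 1.10 and 2.05 at WT D0 and 2.53, 4.29, 3.75 and 2.98 at WT D7, and 0.857, 1.03, 0.745 and 0.819 at Trem2-/- D0 and 3.24, 4.51, 3.39 and 5.19 at Trem2-/- D7. Per kb of exons, Gli3 lay below Gli1 in 7 of the 8 D0 libraries and above it in all 8 D7 libraries. Gli2 over Gli1 ranged from 0.389 to 0.706 at D0 and from 0.498 to 0.802 at D7, with overlap.

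**Figure D2:**
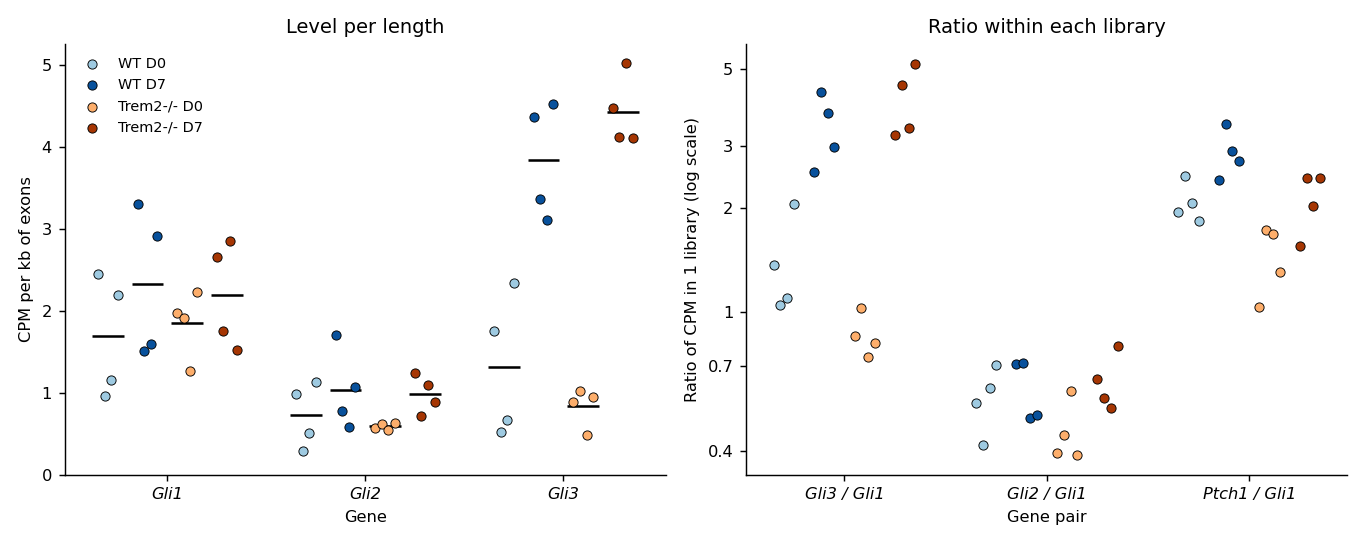
Left, CPM per kb of exons of Gli1, Gli2 and Gli3 in each library with the group mean as a line. Right, ratios of CPM within each library on a log scale for Gli3, Gli2 and Ptch1 over Gli1. The Gli3 points at D7 (3.11 to 5.02 CPM per kb) stand above those at D0 (0.491 to 2.34), and the Gli3 over Gli1 ratio is the one that separates the days in both genotypes.

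Pth1r, the receptor for PTHrP, showed one of the steadiest rises. It was at 22.8, 7.65, 42.6 and 43.1 CPM at WT D0 and 146, 94.5, 96.9 and 158 CPM at WT D7. In Trem2-/- mice it was at 11, 17.6, 6.56 and 7.80 CPM at D0 and 120, 88.2, 154 and 58.8 CPM at D7. The days do not overlap in either genotype. The log2 fold change was 2.28 ± 0.45 in WT (4.85-fold, adjusted p = 0.00305) and 3.18 ± 0.45 in Trem2-/- (9.06-fold, adjusted p = 6.11e-05), and both calls held without any single library.

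Col10a1, the marker of hypertrophic chondrocytes, had the largest fold change of the 7 genes and, at D0, the largest fold spread between libraries. At D7 Ihh spread more, 4.85-fold in WT and 6.41-fold in Trem2-/-, against 2.82-fold and 3.63-fold for Col10a1. It was at 135, 6.45, 347 and 289 CPM at WT D0 and 1731, 614, 822 and 1011 CPM at WT D7, and at 33.2, 46.4, 55.9 and 3.40 CPM at Trem2-/- D0 and 1112, 1004, 1397 and 385 CPM at Trem2-/- D7. The days do not overlap in either genotype, although the highest WT D0 library lies 53.8-fold above the lowest. The log2 fold change was 3.27 ± 1.02 in WT (adjusted p = 0.0274) and 5.13 ± 1.02 in Trem2-/- (adjusted p = 7.30e-04), and mean CPM was 5.38-fold and 28-fold higher at D7. The WT call rests on single libraries: it was lost without D0 replicate 2 (log2 fold change 2.02, adjusted p = 0.0659), D7 replicate 1 (0.0739) or D7 replicate 4 (0.0576), whereas the Trem2-/- call held without any of the 8. With WT D0 replicates 2 and 4 both left out, the libraries lowest and highest in chondrocyte genes, 2 of the 7 genes remained called in WT, Pth1r and Gli3.

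**Figure D3:**
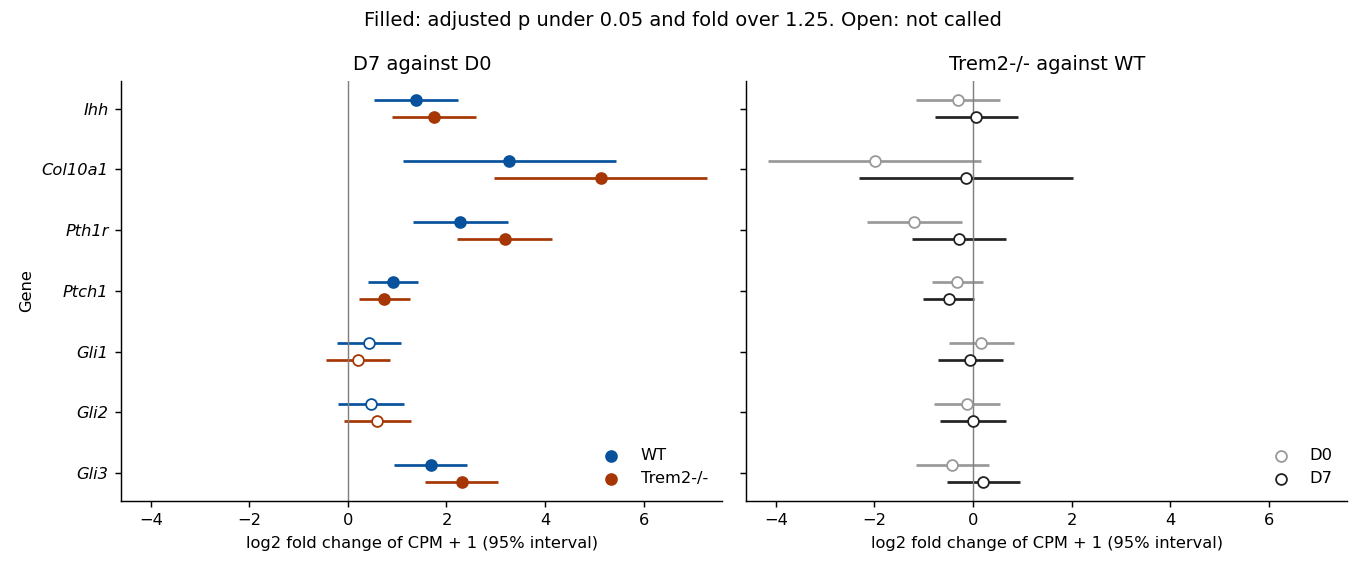
log2 fold change of each gene on the CPM + 1 scale with its 95% interval from limma, D7 against D0 on the left and Trem2-/- against WT on the right; filled points passed the adjusted test and the threshold of size. The 5 filled genes are the same in WT and Trem2-/-, and no point on the right is filled.

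Genotype was compared at each day, and the difference between the genotypes in their response to injury was tested as an interaction. By limma with adjustment 0 of the 7 genes were called at D0, at D7 or for the interaction, as were 0% of all genes tested, and edgeR and voom on the recovered reads also called 0 of the 7 in each (over all genes edgeR called 0 and voom 0, 1 and 0). At an unadjusted p under 0.05 there was 1 gene at D0, 0 at D7 and 0 for the interaction, against 2.92%, 7.27% and 8.16% of all genes. The D0 gene was Pth1r, with a log2 difference, Trem2-/- minus WT, of -1.19 (95% interval -2.15 to -0.23, adjusted p = 1.000). It passes the study's rule as lower, as do 1.37% of all genes, but the groups overlap, since WT D0 replicate 2 (7.65 CPM) lies among the Trem2-/- libraries, and the exact permutation p was 0.143. Col10a1 at D0 had a mean of 34.7 ± 22.9 CPM in Trem2-/- and 194 ± 154 CPM in WT, with a log2 difference of -1.99 whose interval runs from -4.16 to 0.17. Single libraries moved this value: it was -3.24 without WT D0 replicate 2 (adjusted p = 0.166) and -1.15 without Trem2-/- D0 replicate 4 (adjusted p = 0.884). The chondrocyte list lay lower in the same direction at D0, with a median log2 difference of -1.44 over its 19 genes, and its part in these values was not tested. At D7 Ptch1 had the smallest p of the 7, with a mean of 22.3 ± 4.46 CPM in Trem2-/- and 32.2 ± 8.83 CPM in WT (log2 difference -0.49, 95% interval -1.01 to 0.02, adjusted p = 0.709). The interaction was 1.85 for Col10a1 (-1.21 to 4.92), 0.90 for Pth1r (-0.46 to 2.26), 0.63 for Gli3 (-0.41 to 1.67), 0.37 for Ihh (-0.83 to 1.57), 0.13 for Gli2 (-0.82 to 1.08), -0.17 for Ptch1 (-0.90 to 0.56) and -0.22 for Gli1 (-1.14 to 0.70). A difference between the genotypes in the rise was not detected, and these intervals give the sizes that remain possible.

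Levels were compared between genes per kb of exons. Col10a1 stood first and Pth1r second by mean in all 4 groups. At WT D7 the means were 334 for Col10a1, 42.4 for Pth1r, 3.84 for Gli3, 2.33 for Gli1, 2.27 for Ptch1, 1.20 for Ihh and 1.04 CPM per kb for Gli2. At Trem2-/- D7 they were 311, 35.9, 4.43, 2.19, 1.57, 1.33 and 0.988 CPM per kb in the same order. At D0 Gli1 followed Pth1r, with 1.69 CPM per kb in WT and 1.84 in Trem2-/-, and Ihh came last, with 0.237 and 0.110. At D7 the ranges of Col10a1 and Pth1r do not overlap, nor do those of Pth1r and Gli3, in either genotype. At Trem2-/- D7 Gli3 also lay clear of Gli1, and at WT D7 Gli3 stood above Gli1 in each of the 4 libraries although their ranges overlap. Below Gli1, every pair of neighbours at D7 overlapped in range. At D0 Col10a1 stood above Pth1r in 3 of 4 libraries of each genotype, and Pth1r lay clear of Gli1. At Trem2-/- D0 Gli1 also lay clear of Ptch1, and Gli2 of Ihh.

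Other genes of the hedgehog pathway were followed as lists. Of 7 genes for hedgehog ligands and their release, 4 rose at D7 in WT and 4 in Trem2-/-, Ihh included, and 0 fell. Counts of this and the following lists stand beside 15.3% of all genes rising and 12.0% falling in WT, and 24.9% rising and 25.9% falling in Trem2-/-. Hhat, which attaches palmitate to the ligand, rose from a mean of 3.31 to 11.7 CPM in WT (log2 fold change 1.62, adjusted p = 6.24e-04) and from 1.76 to 15.6 CPM in Trem2-/- (2.61, adjusted p = 7.52e-06), and Scube1, of a family that helps release it, rose as well (2.41 and 2.31). Dhh, the desert hedgehog ligand, did not pass the test, with means of 8.68 and 7.43 CPM at WT D0 and D7 and of 11.4 and 8.05 CPM at Trem2-/- D0 and D7. Shh was not analysed here.

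Of the 6 receptor genes described here, Ptch1, Smo and Cdon rose in WT, and these and Boc rose in Trem2-/-. Smo, which Ptch1 holds silent, was at 37.7, 15.3, 21.6 and 45.9 CPM at WT D0 and 58.2, 63.2, 41.6 and 60.8 CPM at WT D7, with slight overlap, and rose from a mean of 22.0 to 66.0 CPM in Trem2-/- (log2 fold changes 0.98 and 1.55, adjusted p = 0.0170 and 2.97e-04). The co-receptor Cdon rose from 88.3 to 229 CPM in WT and from 68.6 to 219 CPM in Trem2-/- (1.56 and 1.66, adjusted p = 0.00442 and 7.57e-04). Boc, a relative of Cdon, had log2 differences of 0.41 in WT (adjusted p = 0.308) and 0.75 in Trem2-/- (limma adjusted p = 0.0489, edgeR adjusted p = 0.0532), and Gas1, another co-receptor, of 0.41 and 0.96, of which neither passed the threshold.

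Inside the cell, 5 of 10 genes rose in WT and 6 in Trem2-/-, with 1 fall, Spop, in the latter (15.3% and 24.9% of all genes rose). The risers in both were Gli3, Kif7, which works at the tip of the primary cilium, Gpr161, which restrains the pathway there, and Evc and Evc2, which pass the signal on from Smo. Sufu, which binds and restrains the GLI factors, rose in Trem2-/- (log2 fold change 0.63, adjusted p = 0.00302) and had a difference of 0.40 in WT (adjusted p = 0.0590). Of 9 genes for transport in the primary cilium, where mammalian hedgehog signal is relayed, Kif3a, Dync2h1, Tulp3 and Bbs1 rose in each genotype and 0 fell. The Evc call in WT was not met by edgeR (adjusted p = 0.0672). Of the feedback targets Ptch1, Gli1 and Hhip, Ptch1 rose and the other two did not pass the test. Hhip, a decoy for the ligands, was at means of 20.8 and 16.6 CPM at WT D0 and D7 and 10.3 and 10.8 CPM at Trem2-/- D0 and D7 (log2 differences -0.38 and 0.17, adjusted p = 0.653 and 0.824).

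On the PTHrP side, Pth1r and Zfp521, a zinc finger factor that acts below PTHrP, rose in WT, 2 of 7 genes, and 5 of 7 rose in Trem2-/-, with a fall of Hdac4, a brake on hypertrophy. Of all genes 15.3% rose in WT, and 24.9% rose and 25.9% fell in Trem2-/-. Pthlh, the ligand, was at 8.13, 10.2, 4.77 and 7.65 CPM at Trem2-/- D0 and 14.5, 20.3, 15.1 and 20.4 CPM at Trem2-/- D7, without overlap (log2 fold change 1.12, adjusted p = 0.00527). In WT it ranged from 4.54 to 13.6 CPM at D0 and from 9.89 to 18.6 CPM at D7, with overlap (0.51, adjusted p = 0.195). The genotypes were not shown to differ in this (interaction 0.61, 95% interval -0.28 to 1.49, adjusted p = 0.728).

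Of 19 genes of the hypertrophic zone and of mineralization, Col10a1, Ihh and Pth1r included, 12 rose and 0 fell in WT, and 14 rose and 2 fell in Trem2-/-, with median log2 fold changes of 1.31 and 1.62. These counts and medians include Ihh, Foxa2 and Foxa3, which passed the filter on low values mainly or only through their D7 libraries. All of them are among the risers in both genotypes. Since the filter left them little room for any other call, their rises add no weight to the counts. Foxa2 reached at most 0.980 CPM at WT D0 and 0.269 CPM at Trem2-/- D0, and Foxa3 at most 1.49 and 0.821 CPM. Panx3, a channel protein of hypertrophic cells and osteoblasts, was at 2.03, 0.239, 25.1 and 14.3 CPM at WT D0 and 52.6, 34.9, 33.1 and 57.1 CPM at WT D7 (log2 fold change 2.83, limma adjusted p = 0.0138, edgeR adjusted p = 0.0790), and followed Col10a1 in having WT D0 replicate 2 far below replicates 3 and 4. In Trem2-/- its mean went from 1.03 to 41.4 CPM (4.47, adjusted p = 2.14e-04). Ibsp, bone sialoprotein, rose from 306 to 1292 CPM in WT and from 108 to 967 CPM in Trem2-/- (2.44 and 3.18, adjusted p = 0.00874 and 4.54e-04), and Sp7, the osteoblast factor osterix, from 3.20 to 12.1 and from 1.41 to 8.24 CPM (1.64 and 1.98, adjusted p = 0.00332 and 1.95e-04). Alpl, alkaline phosphatase, rose in Trem2-/- (1.38, adjusted p = 0.0110) and had a difference of 1.00 in WT (adjusted p = 0.0769). Runx2, which drives hypertrophy and bone formation, differed by 0.18 and -0.04 (adjusted p = 0.415 and 0.855). Mmp13, the collagenase of late hypertrophic cells, did not follow Col10a1 in WT: it was at 317, 165, 237 and 1059 CPM at D0 and 162, 134, 68.3 and 986 CPM at D7 (-0.79, adjusted p = 0.454). In Trem2-/- it was at 127, 71.6, 23.0 and 84.5 CPM at D0 and 188, 182, 707 and 160 CPM at D7 (1.92, limma adjusted p = 0.0475, edgeR adjusted p = 0.0550), and its interaction was 2.71 (95% interval 0.38 to 5.04, adjusted p = 0.579). The genes that fell in Trem2-/- were Phospho1, a phosphatase of mineralizing cells, and Runx3, which T cells and other leukocytes carry as well.

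**Figure D4:**
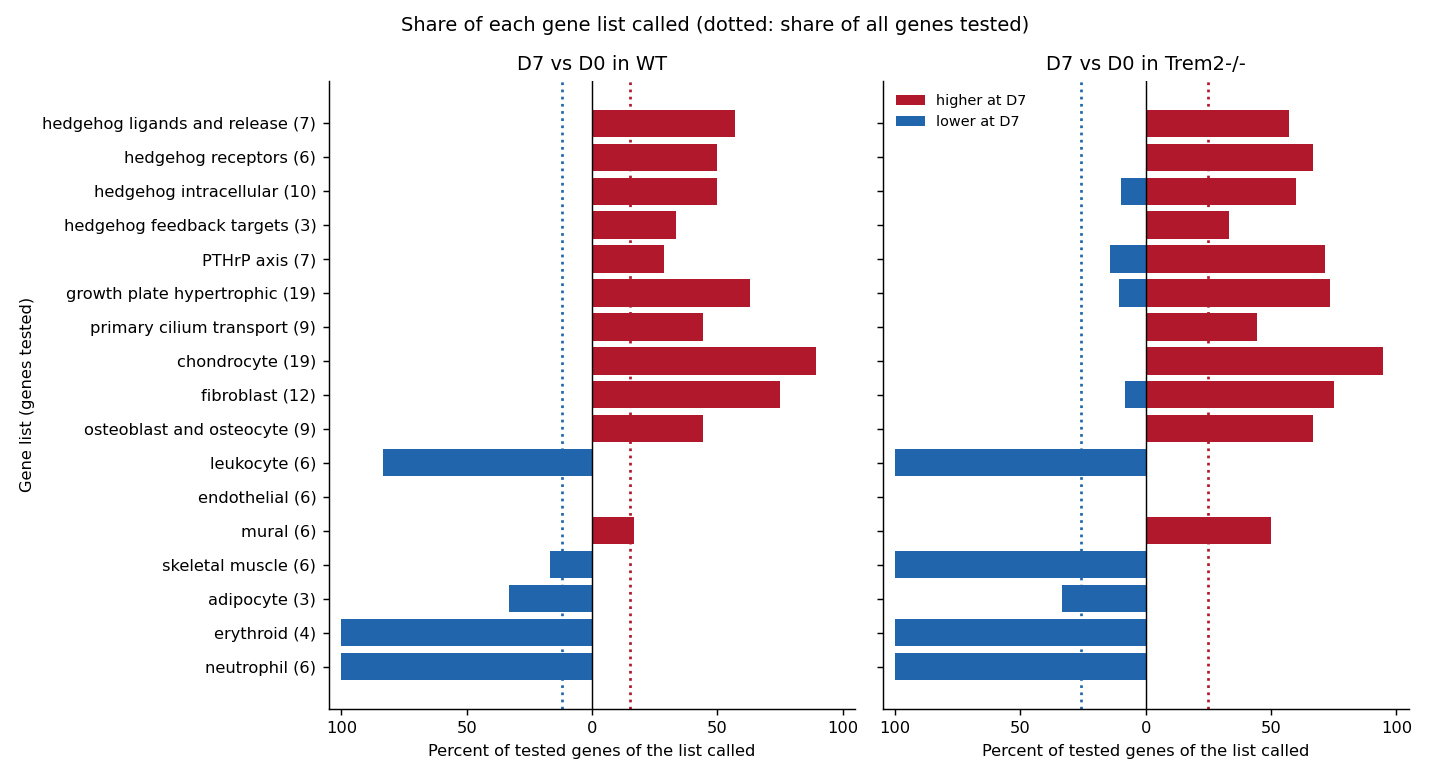
Percent of the tested genes of each list called higher (red, to the right) or lower (blue, to the left) at D7 in WT and in Trem2-/-, with the share of all genes tested as dotted lines (15.3% and 12.0% in WT, 24.9% and 25.9% in Trem2-/-). The number of genes tested is in parentheses, and the hedgehog, hypertrophic, chondrocyte and fibroblast lists point right while the leukocyte, neutrophil and erythroid lists point left.

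Markers of whole cell types moved at the same time. Of 19 chondrocyte genes 17 rose in WT and 18 in Trem2-/- (median log2 fold changes 2.82 and 4.02), of 12 fibroblast genes 9 rose in each (1.54 and 2.04), and of 9 osteoblast and osteocyte genes 4 and 6 rose (1.00 and 1.38). Of 6 leukocyte genes 5 fell in WT and 6 in Trem2-/- (-0.79 and -1.82), and all 6 neutrophil and 4 erythroid genes fell in both. Of 6 mural genes 1 and 3 rose, of 6 endothelial genes 0 were called by limma (0 also by the study's rule), of 6 muscle genes 1 and 6 fell, and of 3 adipocyte genes that could be tested, of 5 listed, 1 fell in each, Adipoq in WT and Fabp4 in Trem2-/-. The summed level of the 12 fibroblast genes ranged from 6379 to 50191 CPM at WT D0, 74907 to 115183 at WT D7, 5438 to 11692 at Trem2-/- D0 and 99089 to 139745 at Trem2-/- D7. The 6 leukocyte genes summed to 2818 to 5550, 1587 to 3486, 3536 to 6129 and 1243 to 1588 CPM in the same groups. Col2a1 rose from 3466 to 42086 CPM in WT and from 757 to 21990 CPM in Trem2-/- (4.45 and 5.65, adjusted p = 0.00480 and 2.34e-04), Acan, the cartilage proteoglycan aggrecan, from 497 to 4113 and from 131 to 3178 CPM (3.74 and 4.88), and Sox9, the master factor of chondrocytes, from 66.6 to 230 and from 34.7 to 182 CPM (2.05 and 2.36).

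Because the lists of cell type markers moved with injury, each gene was also set against the mean log2(CPM + 1) of a list within each library. Ihh, Col10a1 and Pth1r were set against the chondrocyte list and Ptch1, Gli1, Gli2 and Gli3 against the fibroblast list. A value of 0 for the D7 minus D0 difference then means that a gene moved as much as the list. Col10a1 moved by 0.67 more than the list in WT and 1.62 more in Trem2-/- (exact two-sided permutation p = 0.343 and 0.0571), and Pth1r by 0.32 less in each (difference -0.32, exact permutation p = 0.257 and 0.400). Ihh moved less than the list, by -1.21 in WT and -1.75 in Trem2-/- (exact permutation p = 0.114 and 0.0571), on a scale that compresses a gene this low.

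Against the fibroblast list, Gli1 was at -5.03, -4.63, -5.19 and -5.71 at WT D0 and -5.60, -6.68, -6.16 and -5.79 at WT D7, and at -4.92, -4.55, -4.03 and -4.35 at Trem2-/- D0 and -6.08, -6.50, -6.05 and -6.62 at Trem2-/- D7. The days overlap in WT through D0 replicate 4 and separate in Trem2-/-. The difference was -0.92 in WT and -1.85 in Trem2-/- for Gli1, -0.88 and -1.46 for Gli2 and -0.44 and -1.32 for Ptch1, all lower than the list. The exact permutation p was 0.0571 for Gli1 and for Gli2 in WT, 0.229 for Ptch1 in WT, and 0.0286 for each of the 3 in Trem2-/-, where the days do not overlap. Gli3 moved slightly more than the list, by 0.32 and 0.25 (exact permutation p = 0.0857 and 0.114). After adjustment over the 14 tests 0 passed (smallest adjusted p = 0.114). Before adjustment 3 had a p under 0.05, those of Ptch1, Gli1 and Gli2 in Trem2-/-. These 3 were at 0.0286, the smallest p that this exact permutation test allows. At that floor a gene could pass only if many of the 14 tests reached it together. No gene could pass on its own values, so the count of 0 does not decide whether any single gene moved apart from its list. The choice of reference decides much of these differences. With each group's mean subtracted, Gli1 and Ptch1 ran closer to the osteoblast and osteocyte list (Pearson r = 0.85 and 0.73) than to the fibroblast list (0.72 and 0.59). Gli2 was about equally close to each (0.73 and 0.71), and Gli3 was closer to the fibroblast list (0.92, against 0.82). Ihh also ran closer to the osteoblast and osteocyte list (0.56) than to its own reference, the chondrocyte list (0.38). Col10a1 and Pth1r ran closer to the chondrocyte list (0.84 and 0.91, against 0.57 and 0.85). Differences against the osteoblast and osteocyte list were not tested. With Col2a1 and Acan alone, the Col10a1 difference was -0.82 in WT and -0.14 in Trem2-/-, opposite in sign to the values above, and the differences of Ihh (-2.71 and -3.51) and Pth1r (-1.82 and -2.08) passed (adjusted p = 0.0444). With Pdgfra and Pdgfrb alone, growth factor receptors of fibroblasts and mural cells, Gli1 (-0.59 and -1.30) and Gli3 (0.65 and 0.80) passed in both genotypes, on opposite sides of 0. Every test that passed was at the floor of 0.0286, and all share the adjusted p of 0.0444. They passed because many tests, over both references, reached that floor together, so a pass does not rest on that gene's values alone.

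**Figure D5:**
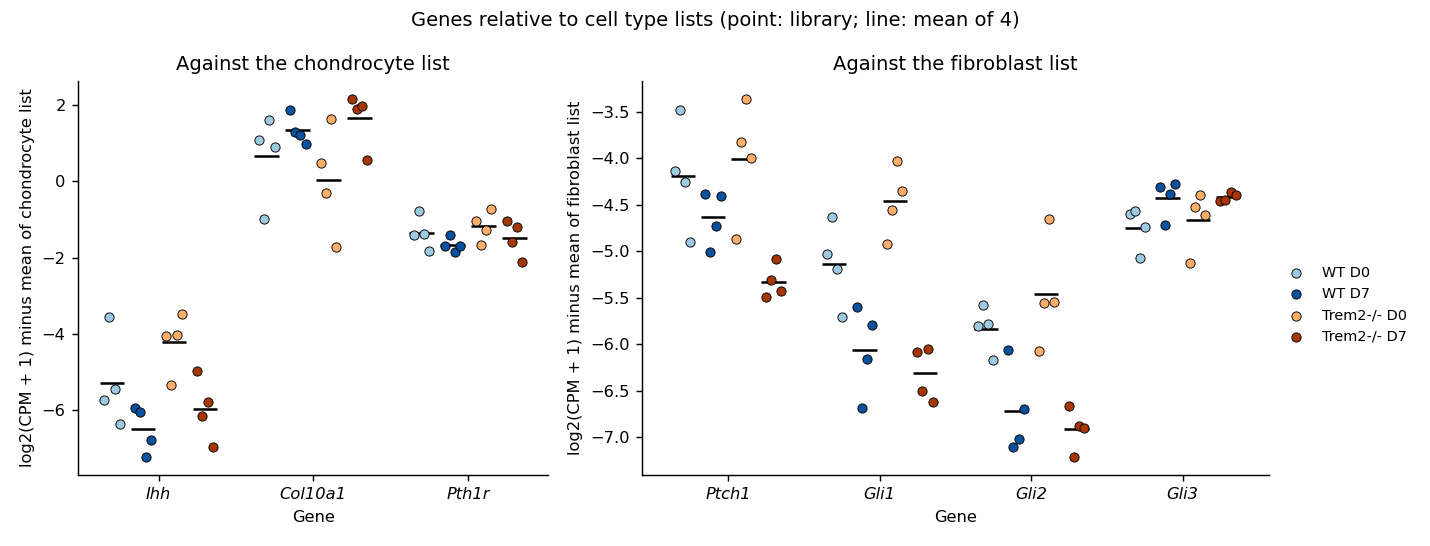
log2(CPM + 1) of each gene minus the mean log2(CPM + 1) of the chondrocyte list (left) or the fibroblast list (right) in each library, with the mean of 4 as a line. Gli1 and Gli2 lie lower at D7 relative to the fibroblast list (group means of Gli1 -5.14 and -6.06 in WT, -4.46 and -6.31 in Trem2-/-), while Gli3 has group means from -4.74 to -4.41.

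Which transcripts ran most alike was described over the 16 libraries for Col10a1, Ihh and Gli1, among 10546 other genes whose mean was 5 CPM or more, with no test, since all points share libraries and depth. The genes closest to Col10a1 were those of the cartilage matrix: Hapln1 (Pearson r = 0.961), Col2a1 (0.959), Acan (0.959) and 3110079O15Rik, listed under that symbol for Snorc (0.959), and the collagen cross-linking enzyme Loxl4 (0.955). The same 5 genes stood first after each group's mean was subtracted (0.851 to 0.918), so the libraries of 1 group rich in Col10a1 were those rich in cartilage matrix transcripts. For Ihh they were Arfgap1 (0.926), Serinc5 (0.922), the osteocyte gene Dmp1 (0.916), Arfip2 (0.911) and Rcor2 (0.908), of which Serinc5 (0.815) remained among the first 5 within groups. For Gli1 they were Prkab2 (0.883), Dicer1 (0.879), Ism1 (0.871), Rnf225 (0.852) and Cped1 (0.848), and within groups another 5, led by Mon2 (0.945).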

How the data were processed

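Bulk RNA-seq was analysed from 1 deposited table with 16 libraries in 4 groups of 4. Per the study's methods and the labels, the authors demultiplexed the reads with bcl2fastq, aligned them to mm10 (STAR), obtained gene counts by featureCounts and scaled the counts with edgeR's TMM method. The deposited signal values are these TMM-scaled CPM. Versions, annotation, strand setting and any filter on low counts are not given in the sources used here. Each library's values were whole multiples of 1 read (100% within 0.1 read), so reads per library, 11567073 to 32867818, were recovered. A count of 0 allows up to 3 reads, and this covers counting error only.

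The 7 genes and all gene lists were chosen with earlier results of these data known. The table has 13734 rows, with a repeated Fcgr1 row, and the 13173 of 13733 genes that reached 1 CPM in 4 or more libraries were tested. The test was limma 3.58.1 (R 4.3.3; lmFit and eBayes with trend) on log2(CPM + 1) with the 4 groups as 1 factor and Benjamini-Hochberg adjustment, and a gene was called at an adjusted p under 0.05 and a fold over 1.25. Fold changes are on the log2(CPM + 1) scale, which understates low genes. The study's own test was limma voom on counts. Run as alternatives were edgeR 4.0.16 and voom on recovered reads, other pseudocounts (0.1 and 5), filters, scalings, a replicate block and the removal of each library. One alternative, WT D0 replicates 2 and 4 both left out, was chosen after seeing the data. Single values were compared by exact permutation over 70 assignments. The limma test was run on simulated counts with the same spread between replicates for all genes and changes at WT D7 only. Its error rates at the uneven spread of these libraries were not tested. By name, list genes were given for hedgehog receptors, inhibitors and ligands, hypertrophic and cartilage genes, plus list members that passed the test (Hhat, Scube1, Zfp521, Hdac4, Phospho1, Runx3 and others), which were chosen after their values were seen. Col10a1, Ihh and Gli1 were each given the 5 genes of highest Pearson r. List genes not analysed here were Shh, Bglap, Efcab7, Hba-a2, Hbb-bs, Hbb-bt, Ift88, Lep, Mepe, Pth2r, Sost and Vegfa. In the receptor and feedback lists 1 further gene is not reported here, and their counts leave it out. Lect1 and Ank are the listed symbols of Cnmd and Ankh. Promoter sequences came from RefSeq, and gene positions from GENCODE M21. The study's own rule is an unadjusted p under 0.05 with a fold over 1.25.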

Additional observations from a re-analysis of the deposited data

How the results depend on the processing

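Of the 7 genes, 5 were called at D7 against D0 in WT, and the number fell to 3 with only the WT groups in the fit (Col10a1 adjusted p = 0.0679, Ptch1 0.0524), to 4 with voom (Col10a1 0.0505) and to 2 with WT D0 replicates 2 and 4 both left out (Ihh 0.0911, Col10a1 0.0869, Ptch1 0.0560). Leaving out each library in turn gave 3 to 5 calls in WT, 4 to 5 in Trem2-/- and 0 to 0 for each genotype comparison and the interaction, from fits with fewer samples. With only the Trem2-/- groups in the fit 6 genes were called, Gli2 among them. With a filter at a mean of 5 CPM Ihh was not tested. By the study's unadjusted rule 1 gene, Pth1r, was called between genotypes at D0 (log2 difference -1.19). The Ihh fold change moved with the pseudocount, from 2.37 at 0.1 to 0.57 at 5 in WT and from 3.05 to 0.72 in Trem2-/-. Beyond the calls lost or gained here and beside each gene, no call of the 7 genes changed under the alternatives run, and no called value changed sign. The cause was not tested.

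Relative to Col2a1 and Acan in place of the chondrocyte list, the Col10a1 difference reversed to -0.82 in WT and -0.14 in Trem2-/-, and Ihh (-2.71 and -3.51) and Pth1r (-1.82 and -2.08) passed. Relative to Pdgfra and Pdgfrb in place of the fibroblast list, Gli1 (-0.59 and -1.30), Gli2 in Trem2-/- (-0.90) and Gli3 (0.65 and 0.80) passed. The cause was not tested. The values that passed were all at the smallest exact permutation p possible, and their adjusted p depends on how many tests reached it together. With 1 library left out, 4 against 3 libraries allow no exact p under 0.0571.

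The labels number the replicates 1 to 4 in every group. Libraries of the same number did not deviate together throughout (correlations of 0.05 to 0.41 in WT, -0.20 to 0.11 in Trem2-/-, -0.51 to 0.17 at D0 and -0.08 to 0.38 at D7), and 5, 2, 1 and 3 of 8 libraries correlated best with their own number. In WT the pairs numbered 2 to 4 were at 0.203, 0.406 and 0.306 and the first at 0.046, which is a hint from the data, but as not every pair was above 0.1 the numbers were not taken to pair the samples. With the number as a replicate block the calls remained 5 in WT, 5 in Trem2-/- and 0 in the others. With 4 libraries a group and 2 to 30 reads per library for Ihh at D0, depth limits that gene most.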
